A study of Mus musculus with 6 samples.

Results

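Genes of polyamine and arginine metabolism were followed in bone marrow macrophages from knockin (KI) and wild-type (WT) mice, both cultured for 24 hours in M-CSF (44 ng/ml) plus RANKL (100 ng/ml). The group was named as 10 genes: Odc1, Srm, Sms and Amd1 (polyamine synthesis), Sat1 (polyamine breakdown), Azin1 and Oaz1 (the antizyme system), Arg1 and Arg2 (arginase) and Nos2 (inducible nitric oxide synthase). A probe set was a member when the platform annotation paired it with 1 of these genes and no other, which gave 13 of 45037 non-control probe sets, for 8 of the 10 genes and of 18193 genes with such a probe set on the arrays. Sms was listed on 3 probe sets, all shared with its pseudogene Sms-ps, and Amd1 on 0, so neither is described here, and a second probe set of Oaz1 was left out because it is shared with Oaz1-ps.

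There were 3 KI and 3 WT arrays, all from mice of a C57BL/6 background. The series title names the IVVY motif of RANK, the receptor for RANKL, so the comparison bears on what this motif does to gene expression at an early stage of osteoclast differentiation. The labels describe neither the altered residues of the KI allele nor how many mice stand behind an array, so that p-values measure the spread between these arrays, which may be technical. M-CSF keeps macrophage precursors alive, and RANKL drives their differentiation into bone-resorbing osteoclasts.

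Polyamines (putrescine, spermidine and spermine) are small positively charged molecules that bind nucleic acids and are needed for growth and for translation. Arginase turns arginine into ornithine, ornithine decarboxylase (ODC, encoded by Odc1) turns ornithine into putrescine, and spermidine synthase and spermine synthase extend the chain with groups taken from decarboxylated S-adenosylmethionine. Antizyme (Oaz1) binds ODC and delivers it to the proteasome, antizyme inhibitor (Azin1) takes antizyme away from ODC, and the acetyltransferase encoded by Sat1 marks spermidine and spermine for export or oxidation. Inducible nitric oxide synthase uses the same arginine as arginase, and in macrophages Nos2 and Arg1 are widely used as marks of opposed activation states.

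Of the 4 polyamine synthesis genes named, Odc1 and Srm were read, and both were lower in KI cells. Odc1 fell on all 3 of its probe sets and Srm on its 1, while Sat1 rose. Azin1, Oaz1 and Arg1 did not pass the test, and Arg2 and Nos2 were too dim to be tested. The test was limma on log2 intensities over the 22518 probe sets whose mean lay above the median of all, with Benjamini-Hochberg adjusted p under 0.05 as the threshold. Of the 13 member probe sets 9 were tested, of which 1 rose, 4 fell and 4 did not pass. Among all tested probe sets 44.9% passed, 19.3% higher and 25.6% lower in KI, so that 5 calls among 9 members is not far from the background share. The median log2 difference was -0.60 over the 9 tested members and -0.04 over all tested probe sets. The member median is the value of Arg1, which did not pass, and Odc1 gives 3 of the 9 values, so it does not show a shift of the group. The median absolute log2 difference was 0.71 over the 9 and 0.27 over all.

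**Figure D1:**
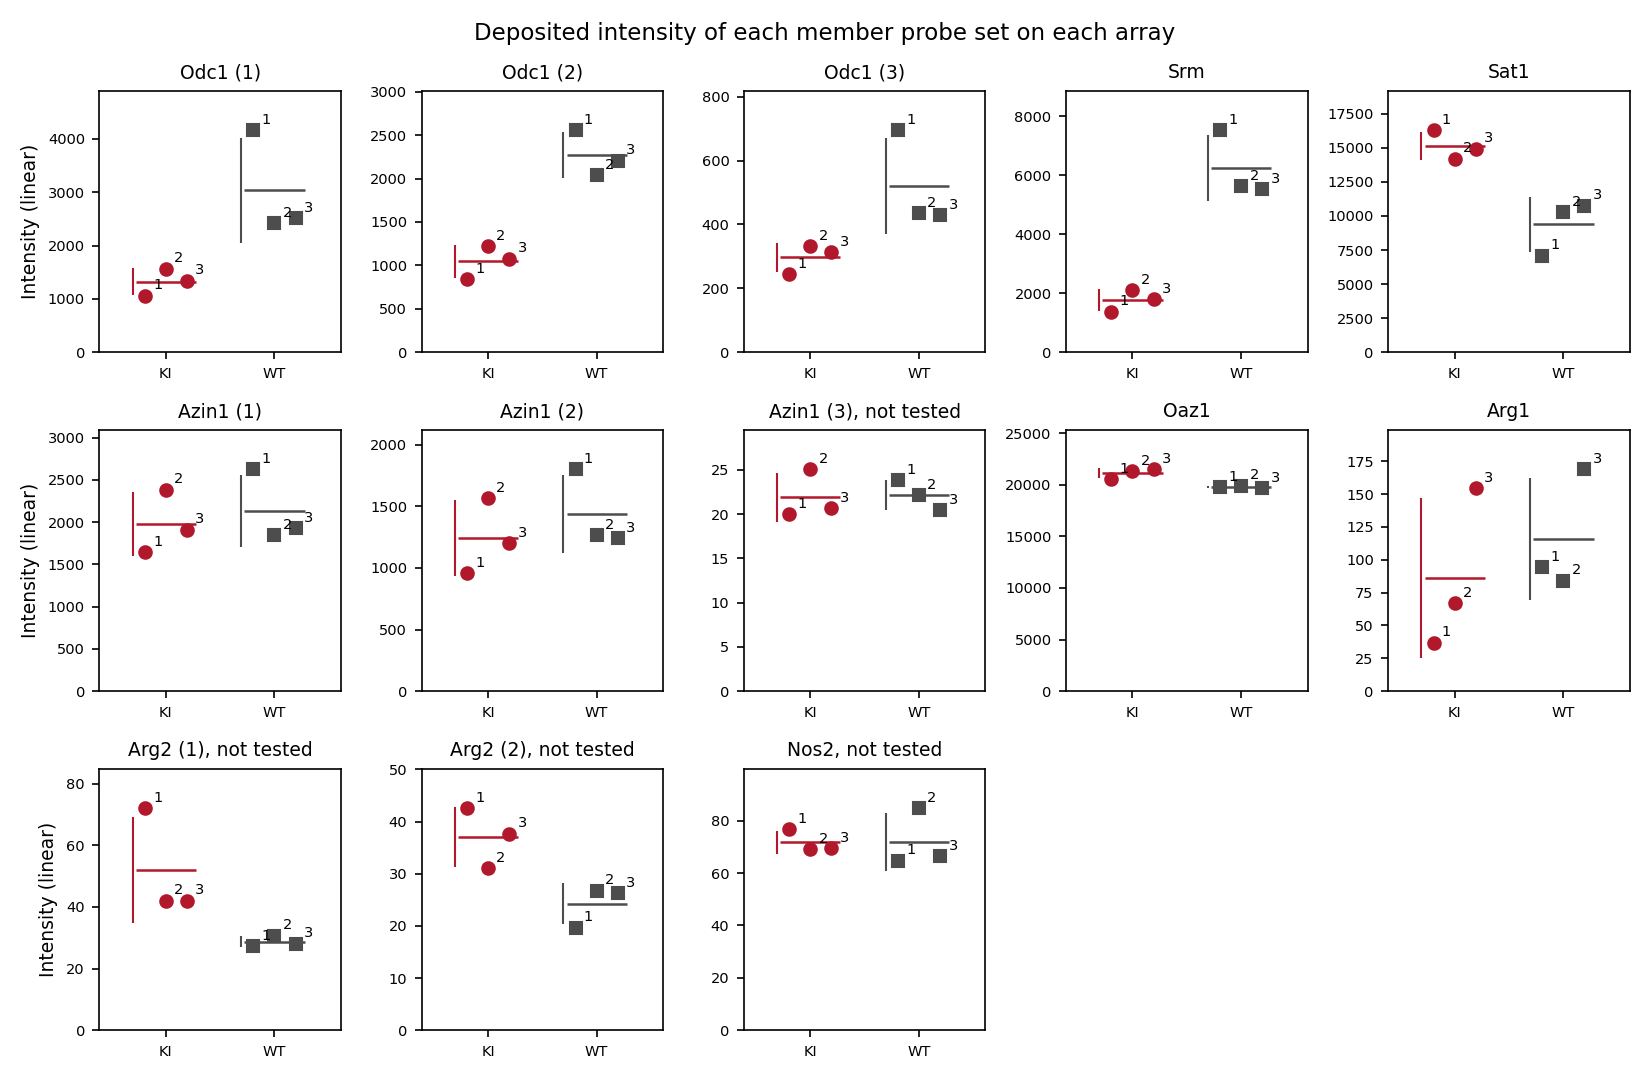
Deposited intensity (linear scale from 0) of each of the 13 member probe sets, with KI arrays as circles on the left and WT arrays as squares on the right of each panel; small numbers give the replicate, horizontal lines the group mean and vertical lines ± 1 SD (n = 3). Numbers after a gene rank its probe sets from bright to dim. The KI circles lie below all WT squares for the 3 probe sets of Odc1 and for Srm, and above them for Sat1, Oaz1 and Arg2.

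The promoters of Odc1, Sat1 and Oaz1 are printed because these genes gave a fall, a rise and a difference that did not pass, and because of the 8 genes with a member probe set the RefSeq table held these 3. Each is 300 bases, taken by the table as 250 before to 50 after a start site, 5′ to 3′ on the gene's own strand in GRCm38.p6. The position is chr12:17544623-17544922 (plus strand) for Odc1, chrX:155216400-155216699 (minus strand) for Sat1 and chr10:80826406-80826705 (plus strand) for Oaz1. For Odc1 the annotated start of the gene, 17544808, lies within the printed bases rather than 50 bases from their end. Capitals mark matches, on either strand, to the GC box GGGCGG, the TATA box TATAAA, the CCAAT box or the E-box CACGTG, and no match overlaps another.
Odc1: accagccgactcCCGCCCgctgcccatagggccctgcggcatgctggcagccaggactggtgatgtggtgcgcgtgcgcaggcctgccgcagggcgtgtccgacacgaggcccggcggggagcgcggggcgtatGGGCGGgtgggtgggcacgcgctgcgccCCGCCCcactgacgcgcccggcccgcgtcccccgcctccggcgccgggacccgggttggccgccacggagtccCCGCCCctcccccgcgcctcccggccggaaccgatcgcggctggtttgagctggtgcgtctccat
Sat1: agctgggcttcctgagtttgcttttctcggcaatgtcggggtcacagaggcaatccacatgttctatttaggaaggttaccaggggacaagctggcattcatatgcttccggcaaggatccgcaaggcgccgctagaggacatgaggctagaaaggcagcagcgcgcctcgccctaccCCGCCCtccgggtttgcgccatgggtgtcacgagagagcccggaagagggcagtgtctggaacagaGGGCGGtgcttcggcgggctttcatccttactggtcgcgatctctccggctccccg
Oaz1: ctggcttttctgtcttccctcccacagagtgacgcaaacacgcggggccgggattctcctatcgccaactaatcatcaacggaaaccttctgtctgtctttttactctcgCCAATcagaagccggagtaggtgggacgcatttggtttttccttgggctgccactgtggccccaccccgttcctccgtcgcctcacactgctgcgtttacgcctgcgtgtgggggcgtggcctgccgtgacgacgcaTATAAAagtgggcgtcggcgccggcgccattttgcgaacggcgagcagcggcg
The Odc1 window was 78.0% G and C and held 4 GC boxes, and the Sat1 window was 60.3% G and C and held 2. The Oaz1 window was 60.0% G and C and held 0 GC boxes, 1 TATA box and 1 CCAAT box. Of all 32851 windows of this length, 35.7% held a GC box, 13.6% a TATA box, 37.4% a CCAAT box and 7.15% the E-box that Myc and Max bind. None of the 3 printed windows held that E-box, which says only that these letters are not in these bases. Such matches are descriptions of the sequence, not sites shown to be used.

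Odc1 (gene ID 18263) encodes ornithine decarboxylase, which catalyses the committed step of polyamine synthesis. Its brightest probe set had intensities of 1062, 1566 and 1341 on KI arrays 1 to 3, against 4158, 2420 and 2518 on WT arrays 1 to 3. Every KI array lay below every WT array, and WT 1 stood well above WT 2 and WT 3. The mean was 1323 ± 253 in KI and 3032 ± 976 in WT (SD, n = 3 each), and the gene fell by 1.17 in log2 intensity (SE 0.24, adjusted p = 0.0083 by limma), a ratio of 0.445.

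The second probe set of Odc1 gave 841.5, 1220 and 1078 in KI, against 2555, 2037 and 2207 in WT. It fell by 1.13 in log2 intensity (SE 0.15, adjusted p = 0.0023 by limma), a fall close to that of the brightest one. The dimmest gave 244.5, 331.5 and 313.7 in KI, against 694.4, 435.9 and 428.3 in WT, and fell by 0.78 (SE 0.21, adjusted p = 0.024 by limma). KI 1 was the lowest KI array and WT 1 the highest WT array on all 3 probe sets of the gene. Without WT 1 and KI 1 the falls were 0.77, 0.89 and 0.42 on the log2 scale from bright to dim, and all 3 passed. The dimmest did not pass when KI 1 (adjusted p = 0.073) or KI 3 (0.059) was left out, when the number in the sample descriptions was a covariate (0.060), when the replicate number was a block (0.081) or when dim probe sets were kept in the test (0.079). All 3 probe sets carry suffixes that Affymetrix gives to probe sets matching more than 1 transcript, and for the second one these may belong to other genes.

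Srm (gene ID 20810) encodes spermidine synthase, which adds an aminopropyl group to putrescine. Its intensity was 1371, 2112 and 1800 on the KI arrays, against 7522, 5637 and 5543 on the WT arrays. The highest KI array was below the lowest WT array by a wide margin. As for Odc1, KI 1 was the lowest KI array and WT 1 the highest WT array. The mean was 1761 ± 372 in KI and 6234 ± 1120 in WT (SD, n = 3 each). Srm fell by 1.83 in log2 intensity (SE 0.18, 95% interval -2.27 to -1.39, adjusted p = 0.00095 by limma), to a ratio of 0.281. Among the 9 tested members this was the largest difference, and with any 1 array left out it lay between -1.97 and -1.66. Without WT 1 and KI 1 the Srm difference was -1.52. Called falls of at least 2-fold made up 3.96% of all tested probe sets, and of the tested members Srm and the brighter pair of Odc1 probe sets were among them.

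The probe sets of other genes with the pattern most like that of Srm over the 6 arrays were those of Dkc1, Snhg1 and Shmt2, by the Euclidean distance of centred log2 values. Dkc1, which encodes dyskerin, lay at a distance of 0.11 and had a log2 difference of -1.78. Snhg1, a host gene of small nucleolar RNAs, lay at 0.13 with a difference of -1.78. Shmt2, a mitochondrial serine hydroxymethyltransferase, lay at 0.17 with a difference of -1.74.

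Sat1 (gene ID 20229) encodes spermidine/spermine N1-acetyltransferase, the rate-limiting enzyme of polyamine breakdown. Its intensity was 16280, 14211 and 14945 on the KI arrays, against 7083, 10300 and 10763 on the WT arrays. The KI arrays were close to each other and all above WT, where WT 1 was the lowest. The mean was 15145 ± 1050 in KI and 9382 ± 2000 in WT (SD, n = 3 each). Sat1 rose by 0.71 in log2 intensity (SE 0.16, adjusted p = 0.011 by limma), a ratio of 1.64. The rise was 0.47 without WT 1 and KI 1, and the call ended with the description number, whose meaning the labels do not give, as a covariate (0.75, adjusted p = 0.059). The Sat1 call also ended when arrays were scaled to the older hybridisation spike-in probe sets (0.18, adjusted p = 0.51), a scaling that moves the median of all tested probe sets from -0.039 to -0.569. With the newer spike-in probe sets, which move that median to -0.245, Sat1 still passed (0.51, adjusted p = 0.014). Among the genes named here, adjusted p under the older spike-in scaling followed the size of the difference nearly alone. Passes and failures under it do not weigh the spread of each probe set.

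**Figure D2:**
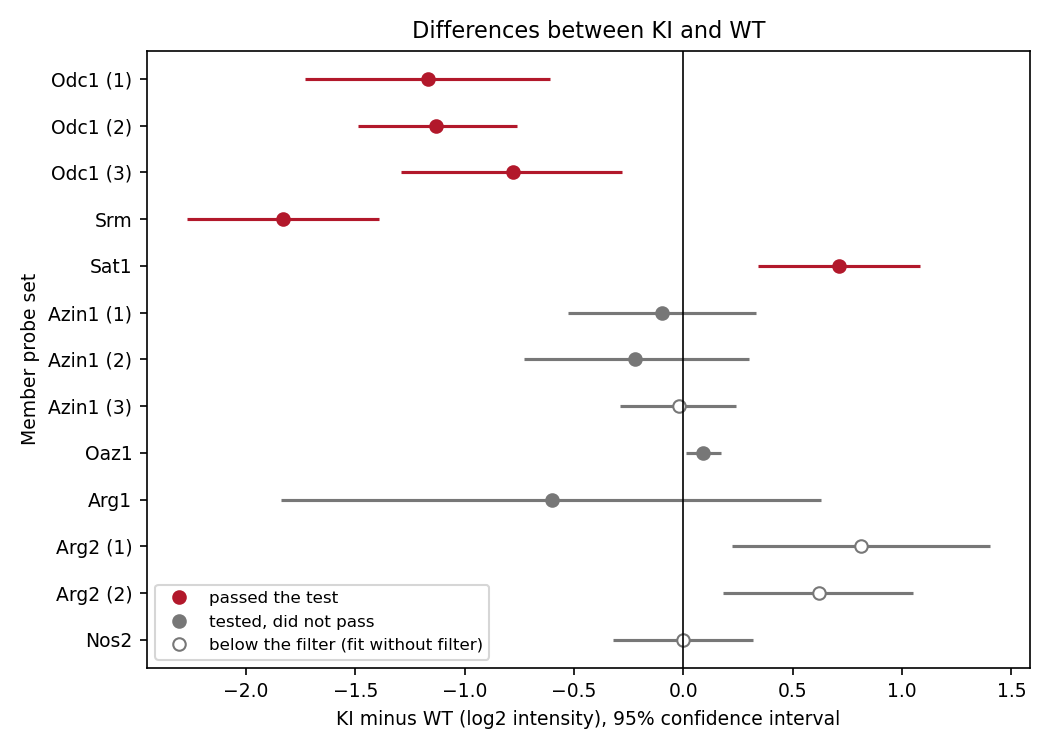
KI minus WT difference in log2 intensity of the 13 member probe sets, with 95% confidence intervals from limma; filled red points passed the test, filled grey points were tested and did not pass, and open points lay below the filter and come from the fit without it. Odc1 and Srm lie to the left of 0 and Sat1 to the right, and the interval of Arg1 spans -1.84 to 0.63.

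No probe set of the antizyme system passed the test. Azin1 (gene ID 54375), whose product resembles ODC but lacks its activity, had intensities of 1643, 2385 and 1913 in KI, against 2624, 1843 and 1925 in WT, on its brightest probe set. The groups overlapped, with WT 1 and KI 2 the highest arrays. The log2 difference was -0.10 (SE 0.18, 95% interval -0.53 to 0.33, adjusted p = 0.67 by limma). The other tested probe set gave 957.2, 1567 and 1203 in KI, against 1799, 1267 and 1240 in WT, a log2 difference of -0.22 (SE 0.22, 95% interval -0.73 to 0.30, adjusted p = 0.45 by limma). Without WT 1 and KI 1 the differences were 0.18 and 0.13, so that the sign turned, and under older spike-in scaling they were -0.63 (adjusted p = 0.041) and -0.75 (adjusted p = 0.018). The last probe set of Azin1 lay near 22 on all arrays, from 19.99 to 25.04 in KI and from 20.48 to 23.87 in WT, and was not tested.

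Oaz1 (gene ID 18245), which encodes antizyme and is read through a ribosomal frameshift that polyamines promote, had intensities of 20553, 21338 and 21483 in KI, against 19773, 19906 and 19689 in WT. The groups did not overlap, but they lay within a narrow range, and the log2 difference was 0.09 (SE 0.03, 95% interval 0.01 to 0.17, adjusted p = 0.057 by limma). It passed with quantile normalization (0.11, adjusted p = 0.029), when only the brightest 30% of probe sets were tested (0.09, adjusted p = 0.031), without KI 1 (0.11, adjusted p = 0.042) and without WT 1 and KI 1 (0.11, adjusted p = 0.014). Its sign turned under spike-in scaling (-0.11, adjusted p = 0.26) and older spike-in scaling (-0.44, adjusted p = 0.098). Groups that did not overlap were found for 6 of the 9 tested member probe sets and for 60.9% of all tested probe sets.

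Arg1 (gene ID 11846), the cytosolic arginase, was dim and varied more within the groups than any other tested member. Its intensity was 37.01, 66.82 and 154.7 on the KI arrays, against 94.19, 84.09 and 168.8 on the WT arrays. Replicate 3 was the highest array in both groups, and the groups overlapped. The log2 difference was -0.60 (SE 0.52, 95% interval -1.84 to 0.63, adjusted p = 0.38 by limma), with a log2 SD of 1.04 in KI and 0.54 in WT. Without KI 1 it was -0.12. It passed as lower with the description number as a covariate (-1.70, adjusted p = 0.031) and under older spike-in scaling (-1.13, adjusted p = 0.00010). Under that scaling Dhps, with a like difference (-1.11) and an SE of 0.12 in the main fit, had no smaller adjusted p (0.00036 by limma). The pass of Arg1 there therefore does not reflect its spread. The mean log2 intensity over the 6 arrays, 6.48, was just inside the filter at 6.40, which corresponds to an intensity of 84.7.

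Arg2 (gene ID 11847), the mitochondrial arginase, lay below the filter on both of its probe sets, and all its KI values were above all its WT values. The brighter one gave 71.98, 42.05 and 42.05 in KI, against 27.33, 30.66 and 28.10 in WT. The other gave 42.51, 31.10 and 37.70 in KI, against 19.66, 26.73 and 26.23 in WT. In the fit without the filter, where 18.7% of 45037 probe sets passed, the log2 differences were 0.81 (SE 0.23, adjusted p = 0.070 by limma) and 0.62 (SE 0.17, adjusted p = 0.065 by limma), so that neither passed. At these intensities the array background, for which the deposited table holds no estimate, limits what a difference can show.

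Nos2 (gene ID 18126), the inducible nitric oxide synthase of activated macrophages, was also just below the filter, with a mean log2 intensity of 6.16. Its intensity was 76.77, 69.01 and 69.38 in KI, against 64.72, 84.68 and 66.42 in WT. The groups overlapped, and in the fit without the filter the log2 difference was 0.00 (SE 0.13, 95% interval -0.32 to 0.32).

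Genes next to the members in the same pathways were read from the same fit, each by its brightest single-gene probe set. Of 48 such genes, 43 were measured and 39 tested, of which 14 fell, 7 rose and 18 did not pass, against 25.6% lower and 19.3% higher among all tested probe sets. Their median log2 difference was -0.10, beside -0.04 over all tested probe sets. The same shares of all tested probe sets stand beside the counts of each pathway group below, and these groups are small. The shares are over all probe sets above the filter, whereas each pathway gene was read by its brightest one. With 1 mean per gene, 13 of 34 tested pathway genes were lower and 6 higher. Of all 9096 genes tested that way, 2722 were lower and 1956 higher. Of the 13511 brightest probe sets (30%), 4332 were lower and 3174 higher.

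The by-product of spermidine and spermine synthesis, methylthioadenosine, is recycled to methionine, and S-adenosylmethionine is the source of the aminopropyl groups. Of 7 tested genes of this supply and salvage route, 4 fell, 0 rose and 3 did not pass, with a median log2 difference of -0.76. Among all tested probe sets 25.6% were lower in KI. Mtap, the phosphorylase that starts the salvage, gave 1309, 1745 and 1435 in KI, against 4097, 2601 and 2707 in WT, and fell by 1.05 in log2 intensity (SE 0.19, adjusted p = 0.0062 by limma). Enoph1, an enzyme further along it, gave 682.2, 843.0 and 809.5 in KI, against 2167, 1412 and 1592 in WT, and fell by 1.13 (SE 0.17, adjusted p = 0.0032 by limma). The other falls, named after their values were seen, were those of the salvage isomerase Mri1 (-1.03) and of Ahcy (-0.76), which clears S-adenosylhomocysteine. The salvage enzymes Apip and Adi1 differed by 0.00 and 0.18 and did not pass, nor did Mat2b (0.02), a regulatory subunit of S-adenosylmethionine synthesis.

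Spermidine is the donor for hypusine, a modified lysine found in the translation factor eIF5A. Of 4 tested genes of this modification 3 fell, beside 25.6% of all tested probe sets. Dhps, deoxyhypusine synthase, gave 1125, 1306 and 1280 in KI, against 2188, 1715 and 1669 in WT, and fell by 0.58 (SE 0.12, adjusted p = 0.010 by limma). With the replicate number as a block Dhps did not pass (adjusted p = 0.053). Dohh, the hydroxylase that completes hypusine, fell by 0.55 (SE 0.11, adjusted p = 0.0077 by limma). Eif5a itself, named after its values were seen, fell by 0.30 (SE 0.05, adjusted p = 0.0043 by limma). As the mean of its probe sets the fall of Dohh was 0.35 (adjusted p = 0.0080 by limma). The related Eif5a2 differed by 0.24 and did not pass.

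Of the arginine uptake genes, Slc7a1 fell, Slc7a7 rose and Slc7a2 did not pass (0.28, adjusted p = 0.085 by limma). Slc7a1, the cationic amino acid transporter that brings arginine into most cells, gave 892.9, 1635 and 1412 in KI, against 6916, 4332 and 4140 in WT, and fell by 1.97 in log2 intensity (SE 0.28, adjusted p = 0.0025 by limma). As the mean of its probe sets the fall of Slc7a1 was 1.25, and without WT 1 and KI 1 its log2 difference was -1.48. Slc7a7, which exchanges cationic for neutral amino acids, gave 1917, 1600 and 1666 in KI, against 581.9, 804.7 and 795.8 in WT, and rose by 1.26 (SE 0.15, adjusted p = 0.0014 by limma). Gatm, which uses arginine to start creatine synthesis, rose by 1.12, and Slc25a15, the mitochondrial ornithine carrier, fell by 0.50. Of 7 tested genes of arginine uptake, synthesis and other use, 2 rose, 2 fell and 3 did not pass, with a median of -0.01. With the replicate block (adjusted p = 0.052) or the covariate (adjusted p = 0.057) Slc25a15 did not pass, nor did Gatm under older spike-in scaling (0.59, adjusted p = 0.058).

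Of 5 tested genes that link ornithine with proline and glutamate, 2 fell and 3 did not pass, beside 25.6% lower among all tested probe sets. Aldh18a1, which makes the common precursor of proline and ornithine, gave 654.5, 1138 and 1052 in KI, against 3411, 2313 and 2205 in WT, and fell by 1.49 (SE 0.25, adjusted p = 0.0045 by limma). Without WT 1 and KI 1 the Aldh18a1 difference was -1.05. Prodh, proline dehydrogenase, fell by 1.07 (SE 0.13, adjusted p = 0.0018 by limma). Oat, which turns ornithine into the same precursor, differed by -0.24 (adjusted p = 0.089 by limma).

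**Figure D3:**
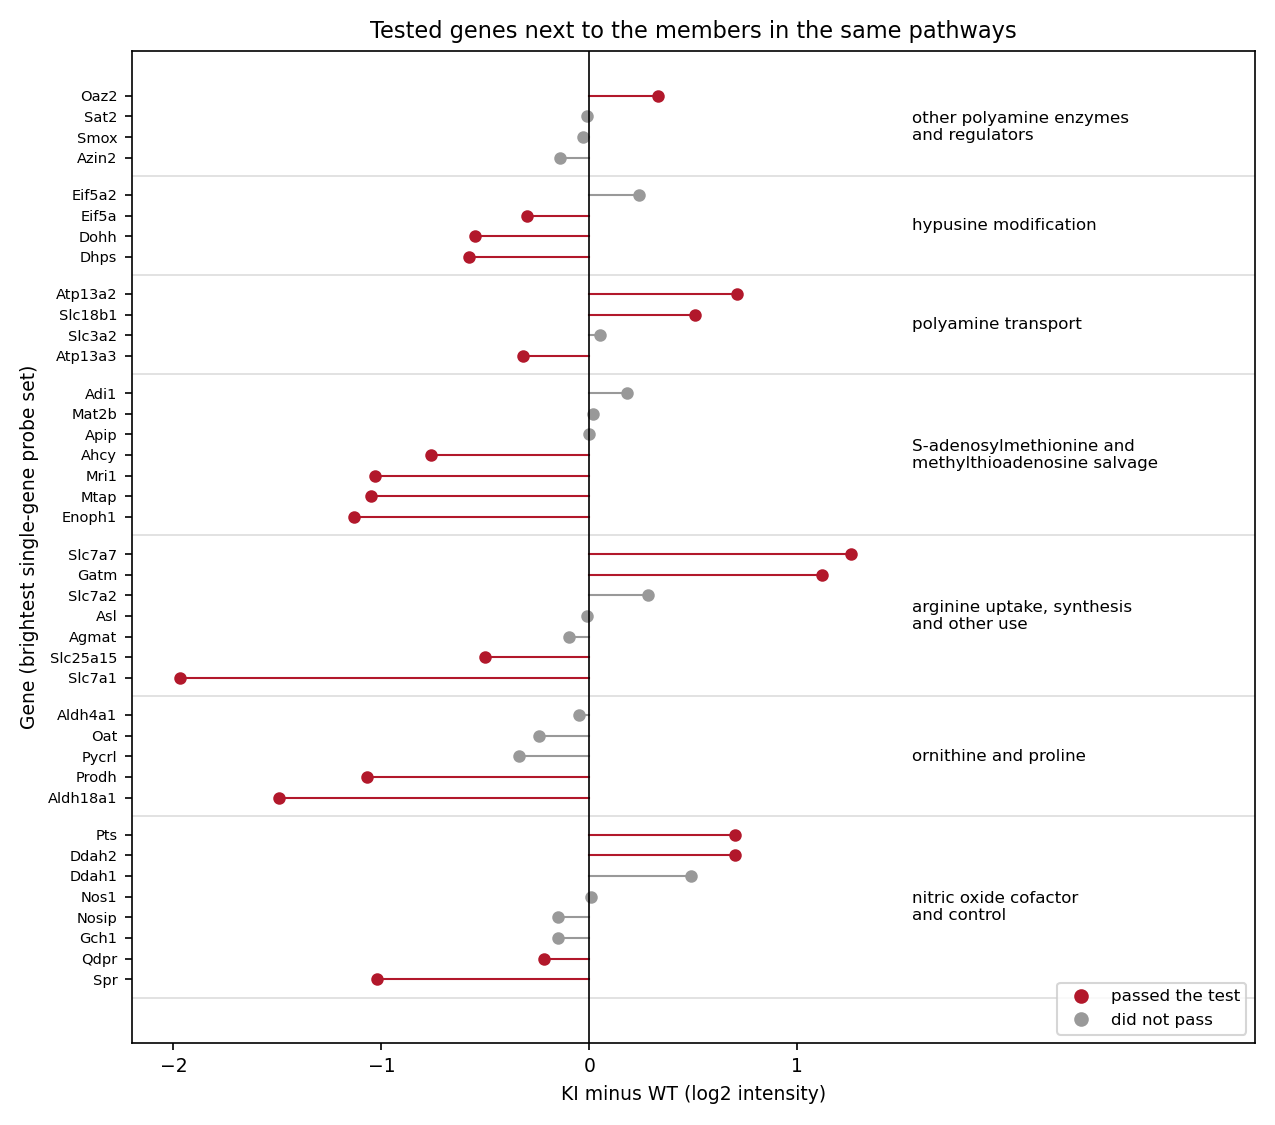
KI minus WT difference in log2 intensity of the 39 tested pathway genes that are not members, grouped by pathway, with genes that passed the test in red and the others in grey. Slc7a1 has the largest fall (-1.97) and Slc7a7 the largest rise (1.26).

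Among 4 tested polyamine transport genes 2 rose and 1 fell. Atp13a2, a lysosomal exporter of polyamines, rose by 0.71 (SE 0.14, adjusted p = 0.0070 by limma), and Slc18b1, a vesicular polyamine transporter, rose by 0.51 (SE 0.11, adjusted p = 0.010 by limma). Atp13a3, a related transporter, fell by 0.32 (SE 0.10, adjusted p = 0.034 by limma), and this call ended without KI 1 (adjusted p = 0.095), KI 3 (0.091) or WT 3 (0.10), with the replicate block (0.091), without the filter (0.074) and as the mean of its probe sets (0.054). With the older spike-ins Atp13a2 did not pass (0.18, adjusted p = 0.53) and Slc18b1 turned to -0.02; under spike-in scaling Slc18b1 did not pass (adjusted p = 0.061).

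Of 4 tested other enzymes and regulators of polyamines, 1 rose and 3 did not pass. Oaz2, a second antizyme, rose by 0.33 (SE 0.10, adjusted p = 0.037 by limma). The call ended without any 1 of the 6 arrays (adjusted p from 0.054 to 0.11), with 1 mean per gene (0.17, adjusted p = 0.097) and with spike-in scaling (0.12, adjusted p = 0.28). It also ended without the filter (adjusted p = 0.074), with the covariate (0.077) and with the replicate block (0.12). The Oaz2 difference turned to -0.20 under older spike-in scaling. The spermine oxidase gene Smox differed by -0.03 and the Sat1 relative Sat2 by -0.01.

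Of 8 tested genes that control nitric oxide synthesis, 2 rose, 2 fell and 4 did not pass. The 4 were Gch1 (-0.15), Ddah1 (0.49), Nos1 (0.01) and Nosip (-0.15). In the route to tetrahydrobiopterin, the cofactor of nitric oxide synthases, Pts rose by 0.70 (SE 0.10, adjusted p = 0.0030 by limma), whereas Spr fell by 1.02 (SE 0.14, adjusted p = 0.0026 by limma). Qdpr, which regenerates the cofactor, fell by 0.22 (adjusted p = 0.015 by limma; 0.052 without KI 3 and 0.070 with the replicate block). Ddah2, which removes inhibitory methylarginines, rose by 0.70 (SE 0.09, adjusted p = 0.0021 by limma). Neither Pts nor Ddah2 passed under older spike-in scaling (0.17 for each, adjusted p = 0.60 for each).

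Markers of the cells in the cultures moved with genotype, and their part in the differences above was not tested. Beside the counts below, 19.3% of all tested probe sets were higher and 25.6% lower in KI. Those shares include dimmer probe sets, whereas each marker was read by its brightest single-gene probe set. All 8 macrophage markers rose, with a summed intensity of 135573 to 141080 on KI arrays and 90763 to 111247 on WT arrays. Without the filter Adgre1 (adjusted p = 0.054 by limma), Itgam (0.067) and Lyz2 (0.12) did not pass. Of 10 osteoclast markers 7 fell, with sums of 32702 to 36537 in KI and 70549 to 81140 in WT. Of 12 neutrophil and myeloid progenitor markers, 10 were measured and 6 rose, with sums of 22343 to 43920 in KI and 16013 to 20043 in WT. None of these 6 passed in the fit without the filter (adjusted p from 0.067 to 0.12 by limma), and 1 of them, Ctsg, had a WT mean of 6.24 in log2 intensity, below the filter. Few markers of the other blood cells were bright enough to test: 0 of 6 measured for mast cells, 2 of 6 for dendritic cells, 1 of 7 for B cells and 1 of 7 for T and NK cells, none with a call. Their sums overlapped between the groups. In the fit without the filter the mast cell marker Kit was lower in KI by 0.50 in log2 intensity (adjusted p = 0.0089 by limma), with 48.4, 46.03 and 48.15 in KI, against 70.51, 67.35 and 64.38 in WT. The other measured mast cell and basophil markers did not pass in that fit: Mcpt8 (0.06), Cpa3 (0.01), Fcer1a (0.01), Gata2 (0.06) and Ms4a2 (-0.14). Of 10 stromal and osteoblast markers, 8 were measured and 1 fell (Dcn), with sums of 2725 to 10136 in KI and 2828 to 9033 in WT. Dcn gave 62.52, 63.46 and 56.97 in KI, all below the filter, against 195.8, 162.5 and 141.9 in WT, and it also passed without the filter (adjusted p = 0.0058 by limma). Of 6 measured erythroid and megakaryocyte markers 1 rose (Pf4), with sums of 7475 to 9158 in KI and 2484 to 3374 in WT. Pf4 itself gave 7032, 8688 and 8321 in KI, against 2011, 2898 and 2433 in WT, which is most of each sum. Itga2b (-0.04) and Gp9 (0.02) did not pass, and the other 3 were too dim to be tested. No measured marker was listed at 0. In RNA of whole cultures, fewer cells of a type and less RNA per cell cannot be told apart.

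The median intensity ranged from 83.0 to 84.8 in KI and from 83.4 to 84.4 in WT. The deposited values were taken as already normalized between arrays, so close medians are no sign of array quality. Scaling to the spike-in probe sets moved the median log2 difference of all tested probe sets from -0.039 to -0.245, and scaling to the older ones to -0.569. What lies behind these shifts was not tested. The log2 ratio of 3′ over 5′ control probe sets averaged -0.10 ± 0.013 in KI and -0.066 ± 0.032 in WT for Gapdh (SD, n = 3 each; two-sided exact permutation p = 0.2, adjusted 0.4 over both control genes), and 0.165 ± 0.008 and 0.173 ± 0.013 for Actb in KI and WT (p = 0.7 by the exact permutation test, adjusted 0.7). The smallest p that 3 against 3 arrays allow in this test is 0.1.

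**Figure D4:**
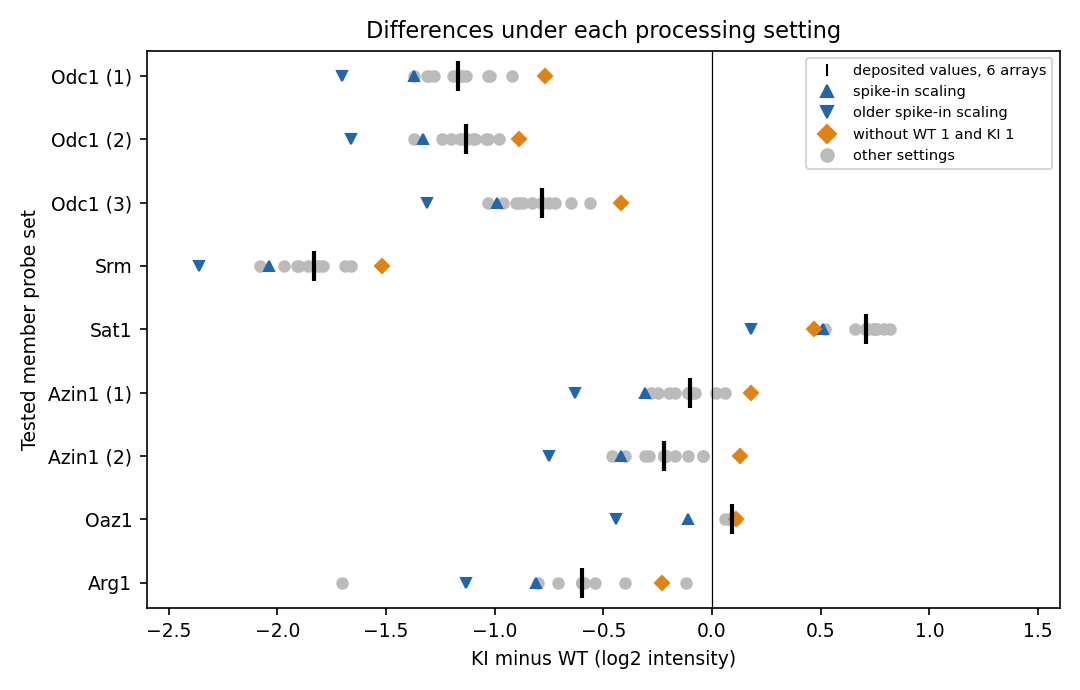
KI minus WT difference in log2 intensity of the 9 tested member probe sets under each processing setting; black ticks are the deposited values with all 6 arrays, blue triangles the spike-in scalings, orange diamonds the fit without WT 1 and KI 1, and grey circles the other settings. Odc1 and Srm stay left of 0 and Sat1 right of 0 in all settings drawn, while Azin1 and Oaz1 cross 0.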

How the data were processed

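RNA for the 3 KI and 3 WT samples was labelled with biotin and hybridised to Affymetrix mouse arrays, per the labels' protocols. Values were deposited as 1 linear intensity per probe set and array. Per the submitters' processing notes the authors used Affymetrix Expression Console; how it summarised and normalized the probes is not given in the sources used here. Of 45101 probe sets 64 controls were left out. Gene names came from the platform annotation (34945 probe sets with 1 symbol, 932 with several, 9160 with none), of which 34741 matched RefSeq gene identifiers (GRCm38.p6). Intensities were floored at 16 (5.46% lay below) and log2 transformed. Probe sets with a mean above the median of all were tested, leaving 22518, with limma 3.58.1 in R 4.3.3 (lmFit, eBayes with an intensity trend) and Benjamini-Hochberg adjustment over all of them. Intervals are 95%. The steps were run on simulated arrays with independent noise and few changed probe sets. That check does not cover data like these, where many probe sets differ together. Precision is limited by having 3 arrays a group.

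The members and all lists were chosen with earlier results of these data known. Named were all member probe sets, up to 2 genes in each direction of each pathway group by size of difference, and the 3 patterns nearest to the member with the largest difference. One name (Pycr3) was matched through a synonym to Pycrl. Same-numbered KI and WT arrays did not deviate together (correlations -0.401, -0.295 and -0.296), and arrays of unlike number gave -0.275 to 0.4. With 3 arrays a group such correlations cannot show whether cultures were paired, which the labels do not state. The main fit used no pairing. Alternatives were other normalizations, scaling to spike-ins, filters, floors, log2 of the intensity plus 32, variance priors, the replicate block, the description number as a covariate, left-out arrays, gene means and leaving out probe sets of several transcripts.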

Additional observations from a re-analysis of the deposited data

How the results depend on the processing

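The falls of Srm and of the brighter pair of Odc1 probe sets passed under every setting in which they were tested; with probe sets of several transcripts left out, none of the Odc1 or Srm probe sets remained, so that 0 of 5 tested members were lower. Of member probe sets, 2 were higher with quantile normalization, with the top 30% filter and without WT 1 and KI 1, in each case Oaz1 beside Sat1. With the covariate 0 were higher, and under older spike-in scaling 0 were higher and 7 lower. Under the latter, adjusted p followed the size of the difference nearly alone among the genes named. With 1 mean per gene 2 of 5 tested genes were lower. With 1 array left out, 1 to 2 were higher and 3 to 4 lower. Azin1 ranged from -0.25 to 0.06 on its brightest probe set with 1 array left out, and turned to 0.18 and 0.13 on the 2 tested probe sets without WT 1 and KI 1. Both spike-in scalings turned Oaz1 to a negative value (-0.11, and -0.44 with the older spike-ins), and the older spike-ins turned Oaz2 to -0.20 and Slc18b1 to -0.02, with 1 pathway gene higher. The causes were not tested.

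Over all probe sets, 4345 were higher and 5756 lower in KI. The counts were 2546 and 9011 with spike-in scaling, 728 and 10586 with the older spike-ins, 2693 and 3491 with the replicate block, 2844 and 3637 with the covariate, and 1956 and 2722 with 1 mean per gene, where fewer features were tested. With 1 array left out they were 2936 to 4180 and 3857 to 5155, the lowest without KI 3. The replicate block ended the calls of the dimmest Odc1 probe set and of Dhps, Slc25a15, Qdpr, Atp13a3 and Oaz2, and changed no other call among the genes named by the rule. Dim probe sets (Arg1, Arg2, Nos2) carry the least information, since no detection call was used here.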

Other observations

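Among the 14 pathway genes that fell in KI, KI 1 was the lowest KI array for 13 and WT 1 the highest WT array for 13. Among the 7 that rose, KI 1 was the highest KI array for 4 and WT 1 the lowest WT array for 4. The 4 member probe sets that fell had KI 1 lowest and WT 1 highest in all 4 cases. This order is not particular to these genes. On the first principal component of all tested probe sets (82.2% of the variance), KI 1 lay at -54 and the other KI arrays at -32.1 and -39.9. WT 1 lay at 66.5 and the other WT arrays at 30.1 and 29.4. The share of all called probe sets with this order was not counted.

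The brighter probe set of Arg2 had the same deposited intensity, 42.05, on KI 2 and KI 3 to the last digit given. Over the 45101 probe sets, KI 2 and KI 3 shared 82 equal values, and the 15 pairs of arrays shared between 47 and 104.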
